A study of Homo sapiens with 6 samples.

Results

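Genes used as markers of breast cancer stem cells were compared between slow-cycling and rapid-cycling cells of MDA-MB-231, an established human triple-negative breast cancer line. The group held 10 genes of the 58735 in the deposited tables, chosen by gene name: CD44, CD24, EPCAM, PROM1, ALDH1A1, ALDH1A3, BMI1, SOX2, NANOG and POU5F1. All 10 were found, each as 1 row. Cells without genetic change (genotype WT in the labels) were stained with PKH26, a membrane dye that is diluted at each division, and grown for 12 days. Slow-cycling cells (SCC) were the 1% that kept most dye. Rapid-cycling cells (RCC) had moderate dye per the treatment protocol, although the sample characteristics call them low. Each group had 3 libraries described as biological replicates of this 1 cell line, and total RNA was sequenced.

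Breast cancer stem cells are tumor cells defined by their capacity to start new tumors and to give rise to the other cells of a tumor. They are commonly enriched by sorting for high CD44 with low CD24 on the surface, or by the activity of aldehyde dehydrogenases, which oxidise aldehydes such as retinal. EPCAM and PROM1 (CD133) are surface proteins used in the same way. BMI1 is a chromatin repressor linked to self-renewal, and SOX2, NANOG and POU5F1 (OCT4) are transcription factors that maintain pluripotency in embryonic stem cells. Stem-like tumor cells are often discussed together with slow division, which is the property used for the sort here.

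None of the marker genes was called different between SCC and RCC. Of the 10 genes, 6 passed the filter on low counts and 0 of these passed in either direction (edgeR quasi-likelihood F test, Benjamini-Hochberg adjustment over all tested genes, threshold 0.05). Over all 15881 tested genes, 2.07% were called: 1.69% higher and 0.378% lower in SCC. CD24 came closest: it was at 3.07 ± 0.19 CPM (counts scaled to a common library size) (SD, n = 3) in SCC against 2.10 ± 0.50 (SD, n = 3) in RCC, for an unadjusted p of 0.0319 and an edgeR adjusted p of 0.214. At an unadjusted p under 0.05, 1 of the 6 marker genes was higher and 0 were lower, against 19.7% of all tested genes in either direction. DESeq2 also called 0 of them, and so did the fit to every gene with at least 1 count, which took in all 10 and called 3.48% of its 37596 genes. The median log2 fold change of the 6 genes was -0.03, and that of all tested genes was 0.00.

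The members differed far more from each other in level than between the sorted fractions. Levels are compared between genes as the deposited FPKM, which divides by gene length and depth. CD44 was highest at a mean of 35.1 FPKM over the 6 libraries, a level that 93.9% of the 19951 protein-coding genes did not exceed. BMI1 followed at 15.3 FPKM (84.4%) and EPCAM at 1.84 (53.0%). CD24 at 0.830 and ALDH1A3 at 0.789 FPKM could not be ordered, because their libraries overlapped, from 0.527 to 1.03 and from 0.680 to 0.919. POU5F1 was at 0.297 FPKM and SOX2 at 0.0623. ALDH1A1 (0.0121), PROM1 (0.0103) and NANOG (0.00538) overlapped each other and had libraries with no count at all.

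**Figure D1:**
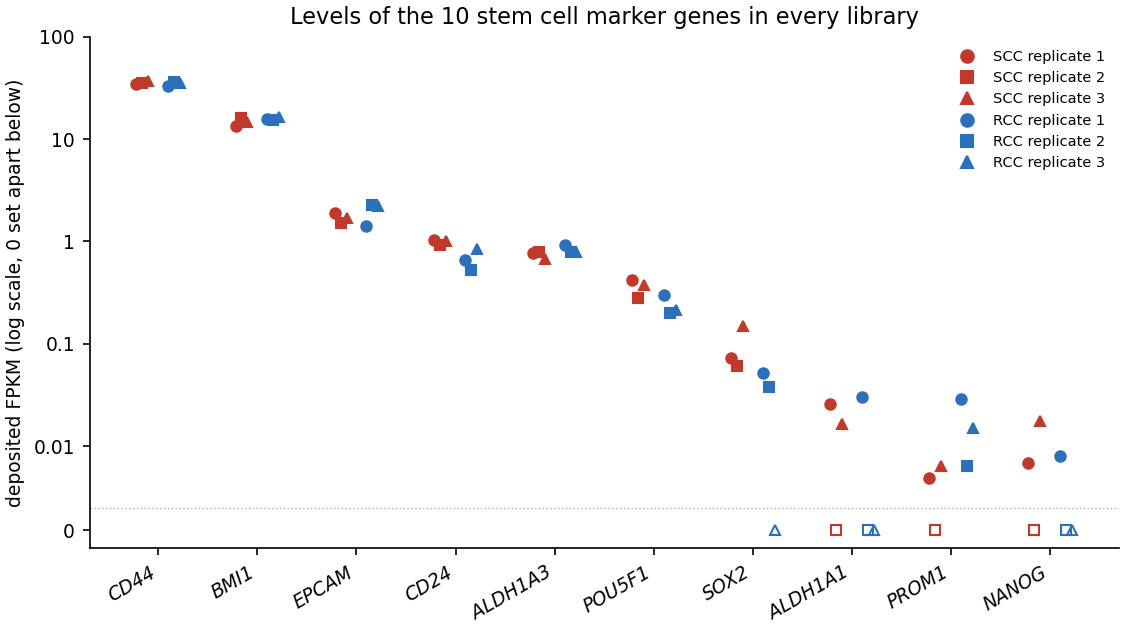
Deposited FPKM of the 10 marker genes in each of the 6 libraries, on a log axis with values of 0 drawn as open symbols below the dotted line; red marks SCC, blue RCC, and the symbol gives the replicate. CD44 and BMI1 stand above 10 FPKM in every library, and ALDH1A1, PROM1, SOX2 and NANOG include libraries at 0.

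Sequence upstream of the start sites was taken from RefSeq (GRCh38.p14), which held 14 start sites for 8 of the 10 genes. The windows below cover the 250 bases before the start nearest to the annotated 5′ end of each gene, 5′ to 3′ on the gene's strand. For ALDH1A1 that RefSeq start lies 127389 bases inside the annotated gene, for NANOG 1608 and for CD44 301 bases inside. The windows set the highest marker (CD44) and the one nearest to the threshold (CD24) beside 3 markers near 0, and capitals mark the dinucleotide CG, the site of DNA methylation. CD44 is on the plus strand at chr11:35138921-35139170, and CD24 on the minus strand at chr6:106975628-106975877. SOX2 is on the plus strand at chr3:181711675-181711924, ALDH1A1 on the minus strand at chr9:72953054-72953303, and NANOG on the plus strand at chr12:7789152-7789401.
CD44: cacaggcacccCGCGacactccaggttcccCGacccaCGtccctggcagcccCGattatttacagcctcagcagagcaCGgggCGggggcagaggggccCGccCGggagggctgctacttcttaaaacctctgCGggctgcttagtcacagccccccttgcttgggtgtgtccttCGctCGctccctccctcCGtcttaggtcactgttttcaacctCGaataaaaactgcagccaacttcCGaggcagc
CD24: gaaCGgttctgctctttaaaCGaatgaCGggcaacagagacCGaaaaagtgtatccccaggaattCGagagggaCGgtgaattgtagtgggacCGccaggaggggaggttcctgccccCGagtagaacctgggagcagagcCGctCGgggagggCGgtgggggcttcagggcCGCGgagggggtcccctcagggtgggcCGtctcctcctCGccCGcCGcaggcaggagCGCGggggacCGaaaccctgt
SOX2: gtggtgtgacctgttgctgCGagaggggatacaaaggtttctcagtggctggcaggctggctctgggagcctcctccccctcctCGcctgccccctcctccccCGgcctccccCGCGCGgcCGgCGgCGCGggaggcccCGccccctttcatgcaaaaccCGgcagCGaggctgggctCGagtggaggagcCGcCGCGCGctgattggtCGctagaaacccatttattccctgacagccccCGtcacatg
ALDH1A1: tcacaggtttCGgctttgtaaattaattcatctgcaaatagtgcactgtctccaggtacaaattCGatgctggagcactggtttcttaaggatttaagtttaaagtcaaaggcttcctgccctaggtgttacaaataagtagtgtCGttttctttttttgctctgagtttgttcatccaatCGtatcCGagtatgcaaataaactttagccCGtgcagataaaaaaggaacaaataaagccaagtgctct
NANOG: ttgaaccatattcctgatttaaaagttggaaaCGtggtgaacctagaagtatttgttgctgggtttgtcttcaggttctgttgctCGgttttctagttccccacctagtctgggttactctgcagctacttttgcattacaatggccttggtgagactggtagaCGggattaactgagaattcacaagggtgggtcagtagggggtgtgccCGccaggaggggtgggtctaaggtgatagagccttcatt

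These windows held 15 CG in CD44, 20 in CD24, 20 in SOX2, 6 in ALDH1A1 and 4 in NANOG, against a median of 11 over 35116 RefSeq windows of the same length. The corresponding counts were 35 for BMI1, 38 for ALDH1A3 and 13 for PROM1. The near-absent genes thus included windows with fewer CG than the median (ALDH1A1, NANOG) and windows with more (SOX2, PROM1). The series title names AP-1, a family of transcription factor dimers that bind TGANTCA, a motif that reads alike on both strands. It was present in 1 of the 14 windows, beginning at base -189 from an alternative start of PROM1, and in 6.57% of all windows. A match is a description of the letters only.

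CD44, the receptor for hyaluronan (ENSG00000026508, chromosome 11, 35138870 to 35232402), had 9353, 6970 and 7741 counts in SCC replicates 1 to 3 and 7740, 7560 and 6284 in RCC replicates 1 to 3. Scaled to library size, these were 347, 356 and 367 CPM in SCC and 336, 361 and 352 CPM in RCC. The groups overlapped throughout. SCC over RCC came to a log2 fold change of 0.03 (SE 0.06, adjusted p 0.817), and the 95% interval of the ratio ran from 0.93-fold to 1.12-fold. Its sign turned without SCC replicate 3 (log2 fold change -0.0020) and without RCC replicate 1 (-0.0080). The tables give CD44 per gene, so its splice forms were not separated.

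CD24, a small surface glycoprotein anchored by lipid (ENSG00000272398, chromosome 6, 106969831 to 106975627), had 87, 56 and 66 counts in SCC and 47, 34 and 47 in RCC. In CPM these were 3.23, 2.86 and 3.13 in SCC and 2.04, 1.62 and 2.63 in RCC. All 3 SCC libraries lay above all 3 RCC libraries. Such a separation, in either direction, was seen in 27.8% of all tested genes. SCC exceeded RCC by 0.56 on the log2 scale (SE 0.23), and the 95% interval ran from 1.04-fold to 2.09-fold before adjustment for the number of genes. The counting intervals of the nearest libraries overlapped: as unscaled CPM, the lowest SCC library was at 2.87 (95% Wilson interval 2.21 to 3.73) and the highest RCC library at 2.66 (2.002 to 3.54). These intervals cover counting error only and take each count as a separate molecule. The libraries carry no molecular identifiers, so that was not checked. The adjusted p stayed above the threshold in all 15 alternatives in which CD24 was tested, from 0.156 with a GC offset and the replicate block to 0.605 with limma on unfiltered log2(FPKM + 1). CD24 was at a log2 fold change of 0.52 without SCC replicate 1 and 0.40 without RCC replicate 2. No annotated gene overlaps CD24, and its 3 annotated copies outside chromosome Y held 1 count in all libraries together.

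The ratio of CD44 to CD24 is the RNA counterpart of the surface sort for high CD44 with low CD24. On the FPKM scale it was 33.3, 38.5 and 36.3 in SCC replicates 1 to 3 and 51.0, 68.8 and 41.4 in RCC replicates 1 to 3. The SCC libraries were all below the RCC libraries. CD44 was nearly level between the groups (log2 fold change 0.03), so this order restates that of CD24. CD24 was not called (edgeR adjusted p 0.214), and the ratio itself was not tested. Every library had at least 33.3 times more CD44 than CD24 per length of gene. In bulk RNA the number of cells that carry a transcript and its amount per cell cannot be told apart.

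**Figure D2:**
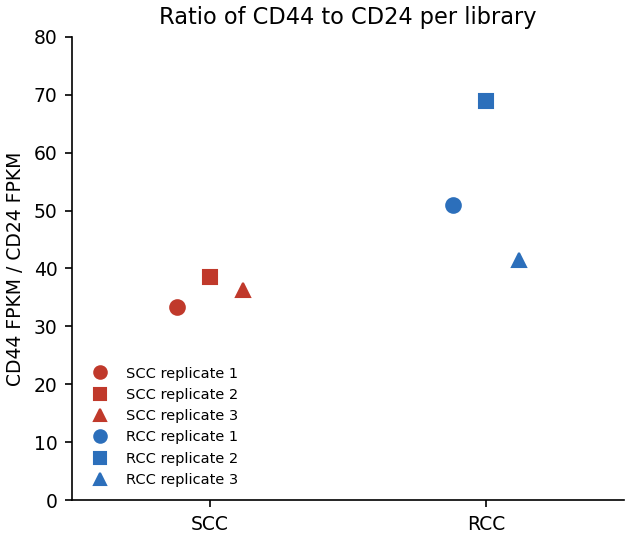
CD44 FPKM divided by CD24 FPKM in each library; red marks SCC, blue RCC, and the axis starts at 0. The SCC libraries lie between 33.3 and 38.5 and the RCC libraries between 41.4 and 68.8. The ratio was not tested, and its order follows that of CD24, which was not called.

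EPCAM, an epithelial adhesion protein (ENSG00000119888, chromosome 2, 47345158 to 47387601), had 132, 75 and 90 counts in SCC and 83, 120 and 101 in RCC. At 4.90, 3.83 and 4.27 CPM in SCC and 3.61, 5.73 and 5.65 CPM in RCC, the groups overlapped, with RCC replicate 1 the lowest library of all. The fitted log2 fold change was -0.19 (SE 0.21, adjusted p 0.618), with a 95% interval from 0.64-fold to 1.20-fold. It was -0.40 without RCC replicate 1 and -0.08 without RCC replicate 2, and it was not called in either fit. PROM1, the surface protein CD133 (ENSG00000007062, chromosome 4, 15963076 to 16084378), had 1, 0 and 1 counts in SCC and 5, 1 and 2 in RCC. In CPM the SCC libraries (0.0371, 0 and 0.0474) were below the RCC libraries (0.217, 0.0478 and 0.112). The 10 counts are too few for a comparison, and the unfiltered fit gave an adjusted p of 0.657 for PROM1.

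Of the aldehyde dehydrogenases, ALDH1A3 was the member that passed the filter. ALDH1A3 (ENSG00000184254, chromosome 15, 100877714 to 100916626) had 123, 89 and 83 counts in SCC and 123, 94 and 82 in RCC, or 4.56, 4.55 and 3.94 CPM against 5.35, 4.49 and 4.59 CPM. The groups overlapped, at a log2 fold change of -0.15 (SE 0.16, adjusted p 0.629, 95% interval 0.71-fold to 1.16-fold). An antisense gene, AC015712.2, lies over its 3′ part from 100892859 and had 28, 28 and 20 counts in SCC and 44, 29 and 41 in RCC. The use of strand in counting was not stated, so reads of ALDH1A3 and AC015712.2 cannot be told apart there. ALDH1A1 (ENSG00000165092, chromosome 9, 72900662 to 73080442) had 2, 0 and 1 counts in SCC and 2, 0 and 0 in RCC. A library with 0 counts allows up to 3 counts, which is 0.153 CPM in SCC replicate 2, 0.143 in RCC replicate 2 and 0.168 in RCC replicate 3.

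BMI1, a subunit of Polycomb repressive complex 1 (ENSG00000168283, chromosome 10, 22321211 to 22331484), had 1564, 1363 and 1343 counts in SCC and 1573, 1379 and 1259 in RCC. In CPM these were 58.0, 69.7 and 63.7 in SCC and 68.4, 65.9 and 70.4 in RCC. SCC replicate 1 was the lowest and the groups overlapped. Its log2 fold change of -0.10 (SE 0.08, adjusted p 0.518, 95% interval 0.82-fold to 1.06-fold) turned to 0.01 with an offset for GC content. BMI1 has a GC content of 39.1%. In the tenth of tested genes with the lowest GC content (median 36.8%), SCC replicate 1 was below the mean of the 6 libraries by a median log2 of -0.24, and without it the BMI1 fold change was -0.03. Without SCC replicate 2 it was -0.18 (adjusted p 0.208). The readthrough gene COMMD3-BMI1 shares 22321211 to 22329542 with BMI1 on the same strand and had 4 counts in all.

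The pluripotency factors were low throughout. POU5F1 (ENSG00000204531, chromosome 6, 31164337 to 31180731) had 33, 16 and 23 counts in SCC and 20, 12 and 11 in RCC, or 1.22, 0.82 and 1.09 CPM against 0.87, 0.57 and 0.62. SCC replicate 2 was below RCC replicate 1, so the groups overlapped. POU5F1 came to a log2 fold change of 0.60 (SE 0.35, adjusted p 0.347), with a 95% interval from 0.90-fold to 2.57-fold. Its counts are uncertain on 2 grounds. The 3′ end of POU5F1, from 31164337 to 31167159, is covered on the opposite strand by TCF19, which had 2765 to 4684 counts per library, and 7 annotated copies of POU5F1 elsewhere held 64 counts in all, against 115 for the gene itself. TCF19 was not called (log2 fold change 0.06, adjusted p 0.637).

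SOX2 (ENSG00000181449, chromosome 3, 181711924 to 181714436) had 5, 3 and 8 counts in SCC and 3, 2 and 0 in RCC. In CPM the SCC libraries (0.185, 0.153 and 0.379) were above the RCC libraries (0.130, 0.0956 and 0). PROM1, also under the filter, separated the other way. Among tested genes 27.8% separated in either direction, and the share was not computed for genes under the filter. No library had over 8 counts of SOX2, and the limit that 0 counts allow was 0.111 to 0.168 CPM. The gene lies within SOX2-OT, an overlapping transcript on the same strand with 10 counts, and a pseudogene of SOX2 elsewhere held 11. The unfiltered fit gave SOX2 an adjusted p of 0.614, and its counts are too few for a comparison. NANOG (ENSG00000111704, chromosome 12, 7787794 to 7799141) had 1, 0 and 2 counts in SCC and 1, 0 and 0 in RCC, fewer than the 26 counts of its 12 annotated copies.

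**Figure D3:**
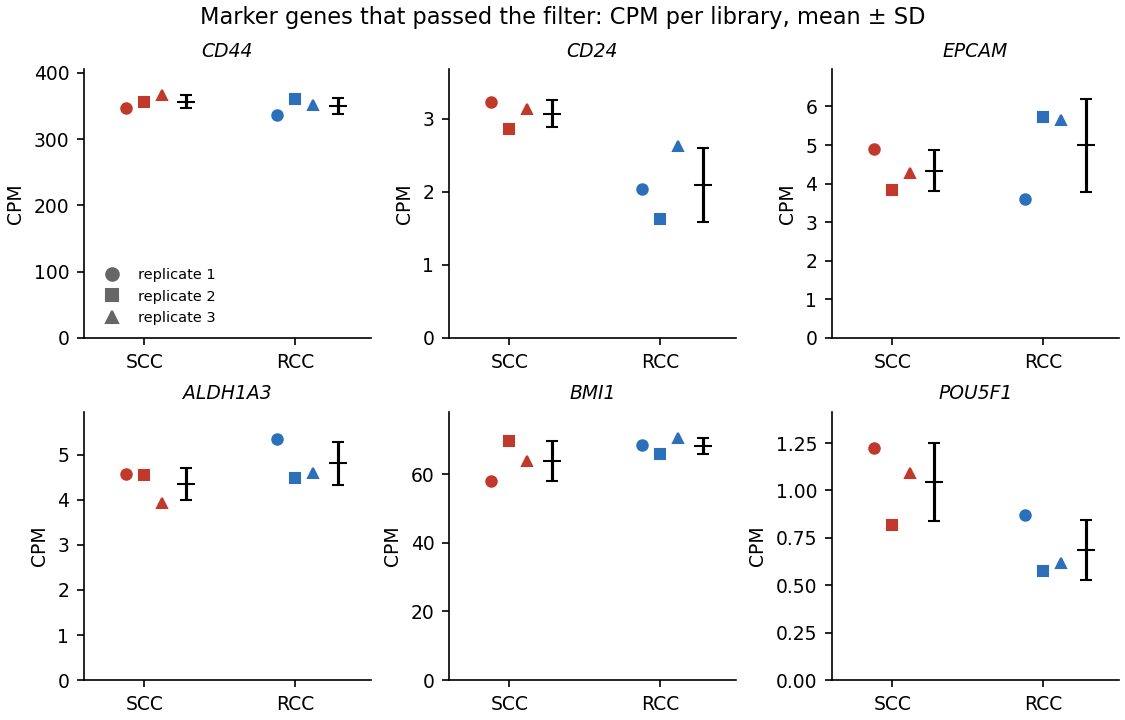
CPM of the 6 marker genes that passed the filter, by library (symbols) with the mean and SD of the 3 libraries of each group (black); each axis starts at 0. CD24 is the panel in which the groups do not overlap, at 2.86 to 3.23 CPM in SCC and 1.62 to 2.63 in RCC.

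**Figure D4:**
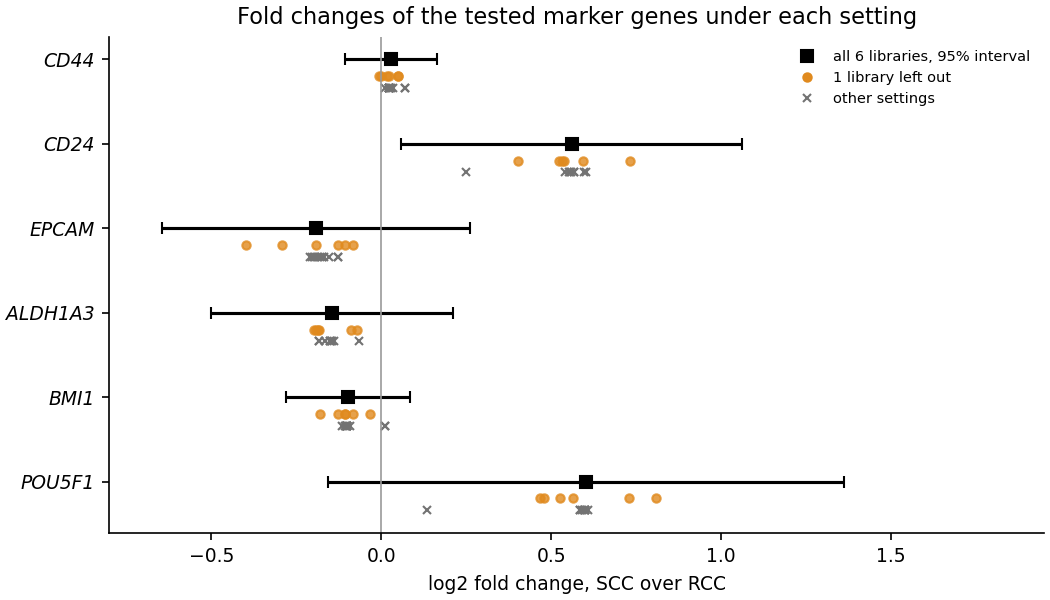
Log2 fold change of SCC over RCC for the 6 tested marker genes, with the 95% interval from all 6 libraries (black), the values with 1 library left out (orange) and those under the other settings (grey crosses). CD44 stays within 0.07 of 0 throughout, whereas EPCAM ranges from -0.40 to -0.08 and CD24 from 0.25 to 0.73.

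Other genes resembled the markers in their pattern over the 6 libraries. Likeness was the root mean square difference of log2(CPM + 0.5) values centred on their mean, among the other genes at a mean of at least 5 CPM (10912 for CD44 and BMI1, 10913 for the others). The closest to CD44 were STARD13 (0.010) and ZNF318 (0.014), and to BMI1 ZFC3H1 (0.013) and MRPL27 (0.015). The closest to ALDH1A3 were TNIK (0.021) and PILRB (0.025), and to POU5F1 SNX29 (0.046) and UBA7 (0.058). CD24 was most like MT-RNR2 (0.072), a mitochondrial ribosomal RNA, and VIPR1 (0.075), and EPCAM was most like ADA (0.080) and ARHGEF39 (0.096). Over all candidate genes the median difference was 0.127 for CD44 and 0.310 for CD24. The added 0.5 narrows the differences of a low gene such as POU5F1 more than those of genes at 5 CPM or more. SNX29, for instance, had a log2 fold change of 0.42, against 0.60 for POU5F1. The closest genes were found among many, and no test was made.

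Genes that work beside the markers were followed in 9 lists of 159 genes, of which 98 were tested. In these lists 4 genes were called higher in SCC and 0 lower, which is 4.08% of those tested against 2.07% of all genes. Counts at unadjusted p under 0.05 are given for most lists, and over all tested genes that share was 19.7% in either direction. The lists were written with earlier results of these data known, so their counts are a description.

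Some of the remaining aldehyde dehydrogenases can contribute to the enzyme assay used for stem cells. Of 17 genes 12 were tested and 0 called, at unadjusted p under 0.05 there were 2 higher and 0 lower, and the median log2 fold change was -0.00. ALDH3B1 had the smallest p, at 28.8, 21.7 and 19.2 CPM in SCC and 17.6, 18.1 and 17.9 in RCC, a log2 fold change of 0.38 (adjusted p 0.172). In the fit with no filter beyond 1 count, where 2.65% of genes were called higher, 2 of these 12 were. ALDH3B1 was among them (adjusted p 0.0344). Its log2 fold change was 0.21 under the GC offset (adjusted p 0.228), and 0.20 once SCC replicate 1 was left out (0.277). By FPKM the members with most RNA per length were ALDH18A1 (36.4 in SCC, 39.3 in RCC), ALDH1B1 (25.9 and 27.3) and ALDH9A1 (23.3 and 24.8), each above ALDH1A3. The retinoic acid pathway, which carries the product of retinal oxidation, had 9 of 16 genes tested and 0 called, with 2 higher and 1 lower at unadjusted p. RDH11, a retinal reductase, had its smallest p, at 88.0, 93.3 and 101 CPM in SCC and 107, 108 and 110.0 in RCC (log2 fold change -0.20, adjusted p 0.173). The median of this list was 0.18 with 8 of 9 genes above 0, or 0.04 with the GC offset. Without SCC replicate 1 it was 0.09, with 6 of 9 above 0. With every gene of at least 1 count, 1 gene of this list was called higher.

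Among ligands, sheddases and linkers of CD44, 1 of 14 tested genes was called. MMP14, a membrane-bound protease that cuts CD44 among other proteins, was at 259, 209 and 234 CPM in SCC and 178, 179 and 184 in RCC, with no overlap. It rose by 0.38 on the log2 scale (SE 0.08, adjusted p 0.0420). Leaving out SCC replicate 3 (adjusted p 0.111) or any RCC replicate (0.203, 0.178 and 0.166 for 1 to 3) ended the call, as did limma on FPKM (0.114 to 0.303). With the GC offset it was 0.22 (adjusted p 0.0112). The linker gene MSN, which ties CD44 to actin, had 1012 CPM in SCC against 975 in RCC (adjusted p 0.639). The list median was -0.00.

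Polycomb repressive complex 1 is the complex of BMI1. The 17 genes followed from it were all tested and 0 were called, with 1 higher and 2 lower at unadjusted p. Their median was 0.03, or -0.03 with the GC offset. RYBP, a subunit of variant forms of the complex, had the smallest p, at 35.2, 39.9 and 41.5 CPM in SCC and 49.9, 46.1 and 48.7 in RCC. The groups did not overlap, with RYBP lower in SCC. Its log2 fold change was -0.31 (SE 0.09, adjusted p 0.0941). Without SCC replicate 1, when 3.93% of all genes were called higher and 2.10% lower, RYBP fell past the threshold (adjusted p 0.0405, log2 fold change -0.24).

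Of 19 other pluripotency factors 4 were tested and 1 was called. KLF4, a zinc finger factor used with POU5F1 and SOX2 in reprogramming, was at 48.2, 43.0 and 40.0 CPM in SCC and 23.0, 24.2 and 24.4 in RCC. Every SCC library was well above every RCC library. KLF4 rose by 0.87 on the log2 scale (SE 0.09, adjusted p 4.73e-04), and it was called in all 17 alternatives, with values from 0.77 to 0.92. The list median, over the 4 tested genes, was 0.34, or 0.17 with limma on unfiltered FPKM. The genes of this list under the filter were near absent, at a mean of at most 0.37 CPM in either group. 2 genes of this list were called higher without SCC replicate 1 (3.93% of all genes), with the GC offset (3.29%), with the offset and the replicate block (3.99%) and with every gene of at least 1 count (2.65%).

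Among 27 other published breast stem cell markers, 18 were tested and 0 called, with 1 higher and 1 lower at unadjusted p, and the median was 0.12. The median was 0.07 without SCC replicate 1, 0.08 without SCC replicate 2, 0.07 with limma on unfiltered FPKM and 0.06 with the GC offset. Calls were 2 higher without SCC replicate 1, 1 higher with the GC offset, and 2 higher and 1 lower with the offset and the replicate block, where 3.99% of all genes were called higher and 2.81% lower. MUC1, a surface mucin, had the smallest p, at 2.19, 1.58 and 1.42 CPM in SCC and 0.70, 1.00 and 1.34 in RCC. Its groups did not overlap. MUC1 was at a log2 fold change of 0.80 (SE 0.33, adjusted p 0.220), or 0.39 with the GC offset (adjusted p 0.527). The integrin genes ITGA6 (143 CPM in SCC, 151 in RCC) and ITGB1 (699 and 724) were expressed and not called (adjusted p 0.538 and 0.750).

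The identity of the line was checked on epithelial and on basal or mesenchymal genes. The mesenchymal or basal genes VIM (795 CPM in SCC, 776 in RCC), CAV1 (754 and 793) and AXL (771 and 727) were high, but CDH2, a mesenchymal cadherin, was at 0.42 and 0.29 CPM. ESR1 (0.35 and 0.46 CPM), CDH1 (0.16 and 0.22) and PGR (0 and 0.043) were likewise low, and KRT5 and TWIST1 had no count in any library. The simple epithelial keratins KRT7 (556 and 454 CPM), KRT18 (213 and 193) and KRT19 (101 and 85.1) were well expressed, and ERBB2, the receptor HER2, was at 85.8 and 74.9 CPM. In the epithelial list 0 of 13 tested genes were called. At unadjusted p under 0.05, 6 were higher and 0 lower, against 19.7% of all tested genes in either direction. The list median was 0.25. That median was 0.06 with the GC offset and 0.17 without SCC replicate 1. In that fit 3 genes of the list were called higher, as against 3.93% of all genes, and 3 in the fit to every gene with at least 1 count (2.65%). DESeq2 called 1 (2.51% of all genes), as did the fit without SCC replicate 2 (3.57%). KRT8, a simple epithelial keratin, had the smallest p, at 425, 387 and 390.1 CPM in SCC and 326, 343 and 335 in RCC (log2 fold change 0.26, adjusted p 0.0694). KRT8 was called without SCC replicate 1 (0.00239), by DESeq2 (0.0275) and with every gene of at least 1 count (0.0243), and its log2 fold change was 0.15 with the GC offset (adjusted p 0.0783).

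Of 10 tested basal or mesenchymal genes, 2 were called higher and 0 lower, against 1.69% and 0.378% of all tested genes. At unadjusted p under 0.05, 4 were higher and 0 lower, against 19.7% of all tested genes in either direction. The median was 0.17, or 0.10 without RCC replicate 3, 0.08 with at least 10 counts in every library and 0.07 to 0.08 with limma on FPKM. In 3 settings 3 were called higher, as more of all genes were. These were the GC offset (3.29% of all genes called higher), the offset with the block (3.99%) and every gene of at least 1 count (2.65%). SNAI1, a repressor of epithelial genes, was at 18.7, 15.6 and 13.5 CPM in SCC and 5.52, 5.78 and 6.43 in RCC, a log2 fold change of 1.44 (SE 0.15, adjusted p 3.79e-04). FN1, which encodes fibronectin, was at 699, 648 and 681 CPM in SCC and 497, 469 and 481 in RCC (log2 fold change 0.49, SE 0.06, adjusted p 0.00167). Both were called in all 17 alternatives. VIM (log2 fold change 0.04) and ZEB1 (0.03) were not called.

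**Figure D5:**
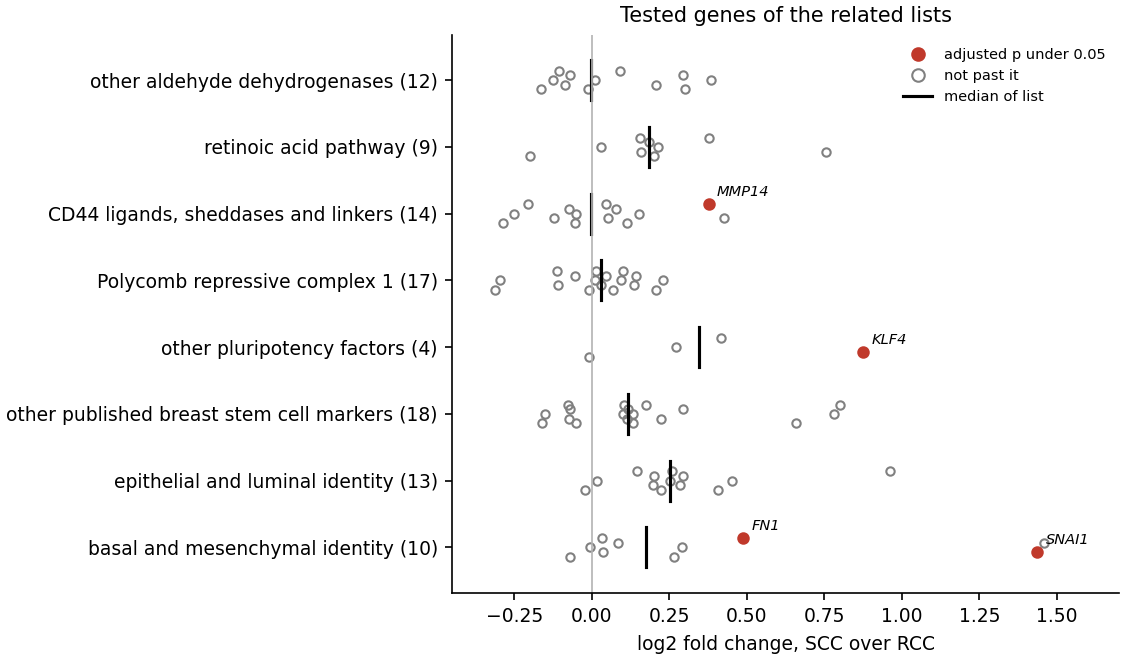
Log2 fold change of SCC over RCC for each tested gene of 8 lists, with the number tested in brackets, called genes in red and the list median as a black bar; the leukocyte list, with 1 tested gene, is not drawn. The 4 called genes lie to the right of 0, and the medians of the aldehyde dehydrogenases, the CD44 partners and the Polycomb complex lie within 0.04 of 0.

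Summed counts were 17655855 to 27831824 per library. SCC replicate 1, the deepest, differed from the others along GC content, at the low end as described for BMI1. In the tenth of tested genes with the highest GC content (median 63.9%), it was above the mean of all libraries. Its median log2 deviation there was 0.41, against -0.16 to 0.03 in the other libraries. SCC replicate 1 also had the highest counts of several leukocyte genes. Leukocytes carry CD44, and some carry CD24. Over 10 leukocyte markers the summed FPKM was 0.332 to 1.37 in SCC and 0.376 to 0.751 in RCC, and 0 markers were at 0 in every library. PTPRC (CD45) had 53 counts in SCC replicate 1, 5 and 15 in the other SCC libraries and 4, 3 and 10 in RCC. ITGAM had 26 counts there against 2 to 7 elsewhere. CD24 was at 2.86 and 3.13 CPM in SCC replicates 2 and 3, against 3.23 in replicate 1. The part of leukocyte RNA in the marker values was not tested further.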

How the data were processed

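RNA-seq was analysed from 6 libraries of MDA-MB-231 cells, 3 SCC and 3 RCC. The deposited counts are whole numbers per gene, and the submitters' processing notes name HISAT2 2.0.5 and featureCounts 1.5.0-p3. The deposited FPKM values equal the count divided by gene length and by 1 constant per library, computed here from both tables. Use of strand, read filters and the genome build are not given in the sources used here. Positions of all 58735 genes equal GENCODE 29 (GRCh38). 27 gene names that differed were restored by ID.

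Counts were filtered (filterByExpr, minimum count 10), scaled by TMM and tested with edgeR 4.0.16 in R 4.3.3 on group alone (two-sided quasi-likelihood F test, Benjamini-Hochberg adjustment over 15881 genes, called under 0.05). The standard error (SE) was taken as log2 fold change over √F. CPM uses TMM-scaled totals. The code was tested on simulated data. Alternatives were DESeq2 1.42.0, limma 3.58.1 on log2(FPKM + 1) and log2(FPKM + 0.1), other scalings and filters, a GC offset (lowess span 0.3), leaving out each library in turn, and a block for the replicate number. Shared replicate numbers are not stated to mark a shared day, so they were not taken as pairs in the main fit. Deviations from the group means were nearly uncorrelated between same-numbered libraries (r = -0.0079, 0.022 and -0.075). With 3 libraries per group these values cannot settle whether the libraries were paired.

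Members and lists were chosen with earlier results of these data known. All members were named. From each list, called genes were named, up to 3 of smallest p, or otherwise the tested gene of smallest p. For each tested member the 2 genes of most similar pattern were named. Identity markers aside, other list genes named were chosen after their values were seen. The labels call the libraries biological replicates without saying whether they came from separate cultures, so p-values measure the spread between these libraries. Y-linked copies were left out. 2 genes of the lists are not reported here and stand outside the list counts and medians.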

Additional observations from a re-analysis of the deposited data

How the results depend on the processing

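0 marker genes were called in either direction under each of the 17 alternatives. CD44 reversed its near-zero log2 fold change without SCC replicate 3 (-0.001956) and without RCC replicate 1 (-0.008026), and with 1 library left out it ranged from -0.008026 to 0.0496. BMI1 reversed with the GC offset (0.01024) and with the replicate block and that offset together (0.01065). The cause was not tested. CD24, EPCAM, ALDH1A3 and POU5F1 kept their direction wherever they were tested.

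Over all genes, 268 were called higher and 60 lower. Higher calls were 995 with every gene of at least 1 count, 130 with limma on log2(FPKM + 1), 117 on log2(FPKM + 0.1), 48 with limma and no filter, 522 with the GC offset and 634 with the offset and block. Lower calls were 315, 36, 34, 1, 245 and 447 in the same order, and 120 with DESeq2. The replicate block gave 350 higher and 106 lower genes, and CD24 an adjusted p of 0.227. With 1 library left out, the fit lacking RCC replicate 1 gave the fewest calls, 99 higher and 8 lower, and the fit lacking SCC replicate 1 the most, 642 higher and 343 lower. PROM1, ALDH1A1, SOX2 and NANOG had 4 to 21 counts each over 6 libraries and so were not compared in the main fit.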

Other observations

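CXCR4, a chemokine receptor in the list of other breast stem cell markers, had 54 counts in SCC replicate 1 and 0 or 1 in each of the other 5 libraries. It was chosen after its values were seen. LYZ, a lysozyme gene of the leukocyte list, had 13 counts in SCC replicate 1 and 0 or 1 elsewhere, and TYROBP had 6 and 0.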
